A study of Mus musculus with 12 samples.

Results

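The ligands of the tumour necrosis factor (TNF) superfamily were followed in CD4+ T cells of female mice. The set held 10 genes, Tnf, Lta, Ltb, Tnfsf4, Tnfsf8, Tnfsf10, Tnfsf11, Tnfsf14, Cd40lg and Fasl, of the 18193 genes with a probe set of their own on the array. The rule takes the family by name and no measured value, and all 15 probe sets annotated to 1 of these genes alone were read. All 10 were bright enough to be tested in both comparisons. TNF superfamily ligands are mostly membrane proteins that form trimers and engage receptors on a neighbouring cell. T cells display them or release them after activation, and the receptors signal through TRAF adaptors to NF-κB or, for receptors with a death domain, to caspases. RANKL, the product of Tnfsf11, drives osteoclast formation, and T cells that make it have been linked to bone erosion in arthritis.

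Expression was measured on 12 Affymetrix arrays, 3 in each of 4 groups. The SKG group held FR4- CD4+ T cells from lymph nodes of 40-week-old SKG mice, a strain on the BALB/c background whose Zap70 gene, a T cell receptor kinase, carries a point mutation, and which can develop autoimmune arthritis. The BALB group held the same sort from BALB/c mice of that age, except that replicate 1 is labelled as CD4+ T cells of spleen and lymph node, with no FR4 sort named. FR4 is a folate receptor found at high level on regulatory T cells. Both groups are labelled as stimulated with PMA and ionomycine, which switch on T cell activation without the receptor. The IFNg group came from the spleen of RAG2 KO BALB/c hosts 7 days after they received CD4 T cells of IFNg KO BALB/c mice. The IL-6 group came from the spleen of IL-6 KO RAG2 KO BALB/c hosts, 7 days after CD4 T cells of IL-6 KO BALB/c mice were given. Both transfer groups are labelled 7 weeks of age, and no stimulation is named for them. Hosts without RAG2 make no T or B cells of their own and keep their innate and stromal cells. The labels give neither pooling of animals nor how cells were purified after transfer. Donor and host genotype differ together in the transfer comparison, with no transfer of unmodified cells.

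Values are log2(intensity + 16) after quantile normalization of the arrays compared, and a difference of 1 is a factor of 2 on that scale, which understates changes of dim genes. Array medians of the deposited intensities ran from 15.7 to 27.7. In every group replicates 1 and 2 lay closer to each other than to replicate 3. The SD over 11433 genes of the difference between 2 arrays was 0.28 to 0.33 for replicates 1 and 2 and 0.49 to 0.65 for pairs with replicate 3. The 3'/5' signal ratio of the actin control, which grows as RNA is degraded or labelled from the 3' end only, was 3.81 in IFNg replicate 3 and 5.13 in IL-6 replicate 3, against 1.60 to 1.67 on the other 4 transfer arrays. It was 1.93 to 2.63 in SKG arrays and 2.95 to 3.98 in BALB arrays, so it also separated those groups. The same ratio of the Gapdh control overlapped between them, at 2.57 to 3.03 in SKG and 2.86 to 3.28 in BALB arrays, and was 7.99 in IFNg replicate 3 and 9.33 in IL-6 replicate 3, against 2.42 to 2.84 on the other transfer arrays. Its part in any result below was not tested. Ifng was 8.87 to 9.75 in IFNg arrays, against 13.53 to 13.57 in IL-6 arrays. Il6 was 4.54 to 6.83 in IFNg arrays and 5.66 to 8.03 in IL-6 arrays, with a log2 fold change of -1.13 ± 0.80 (limma adjusted p = 1.0, blocked by replicate number 0.015). The gene deleted in the IL-6 group was thus not lower in it, which goes against the label, and the sources used here do not say whether its probe set lies in the deleted part. The IL-6 arrays are the libraries labelled so, and each direction in the transfer comparison rests on that label. Zap70 was 10.84 to 11.05 in SKG arrays, against 11.24 to 11.67 in BALB arrays.

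**Figure D1:**
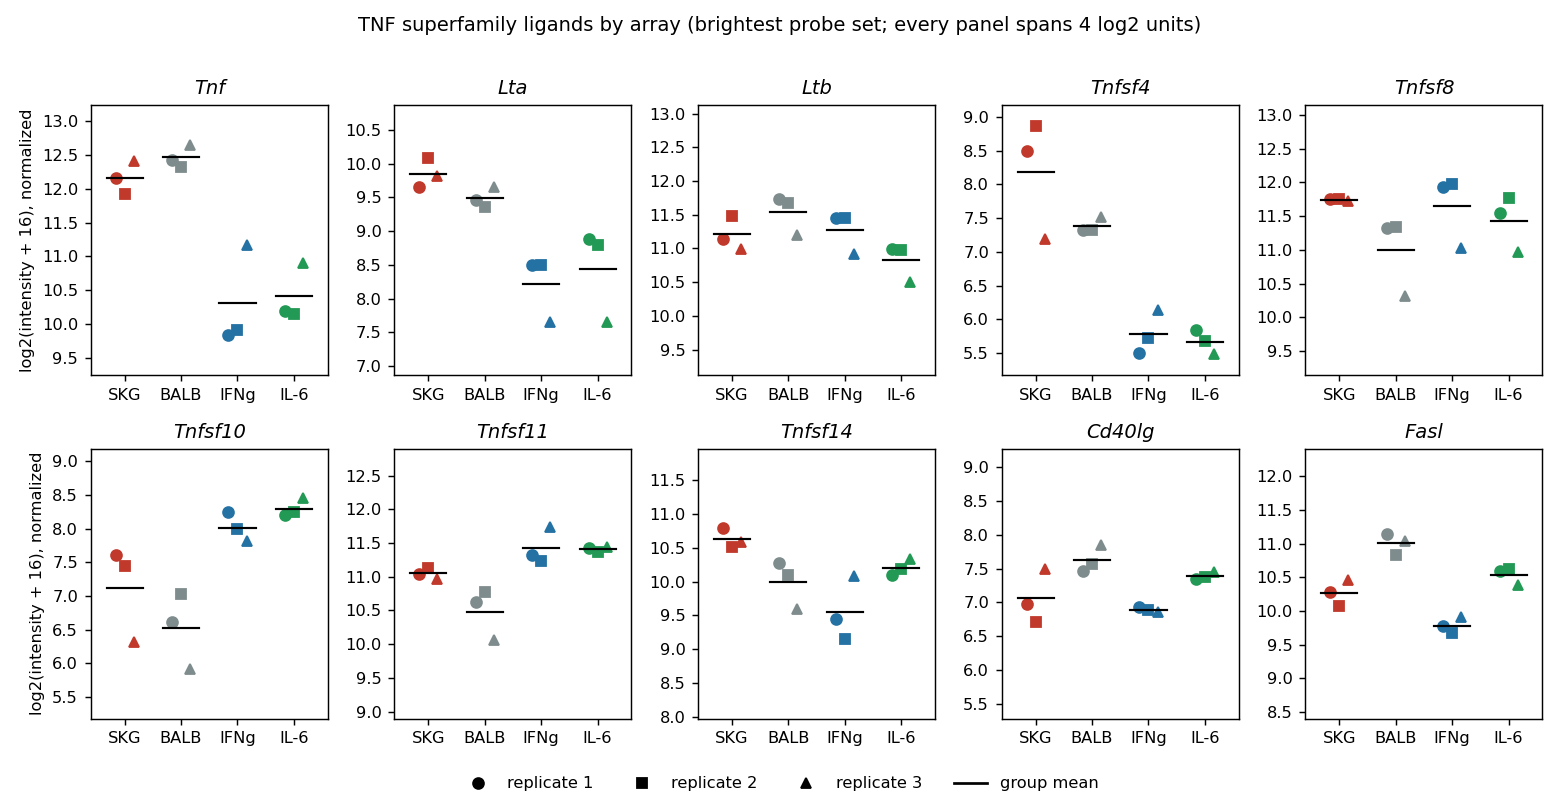
Normalized log2(intensity + 16) of the brightest probe set of each ligand on the 12 arrays, normalized together, with 1 marker shape per replicate number and a bar at the group mean of 3 arrays. Every panel spans 4 log2 units. Tnf, Lta and Tnfsf4 were higher on all SKG and BALB arrays than on all transfer arrays, while Tnfsf10 and Tnfsf11 were lower.

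SKG cells held more transcript of Tnfsf11 (RANKL), Tnfsf8 (CD30 ligand) and Tnfsf14 (LIGHT) than BALB cells, and less of Fasl, the ligand of the death receptor Fas. The log2 fold changes were 0.57 ± 0.18 for Tnfsf11, 0.75 ± 0.24 for Tnfsf8, 0.64 ± 0.19 for Tnfsf14 and -0.73 ± 0.15 for Fasl (SE, n = 3 arrays in each group). Thus 3 of the 10 ligands rose and 1 fell by limma, where 15.7% of all 12075 genes tested rose and 11.8% fell, 27.5% in either direction. A count of 4 called ligands is close to what that background gives for 10 genes and is no result about the family. The other 6 ligands did not pass. The median log2 fold change was 0.47 over the 10 ligands and 0.057 over all genes tested. With the replicate number as a block 7 ligands passed, 4 higher and 3 lower, against a background of 34.6%.

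Tnfsf11 read 11.07, 11.15 and 10.98 on the SKG arrays in replicate order, against 10.64, 10.79 and 10.07 on the BALB arrays. All SKG arrays lay above all BALB arrays, with BALB replicate 3 the lowest. The difference was 1.48-fold, with a 95% interval of 0.15 to 0.98 on the log2 scale (limma adjusted p = 0.047). The deposited intensities, before normalization, were 1820, 1956 and 2408 in SKG arrays and 1526, 1661 and 1296 in BALB arrays. The call was lost without SKG replicate 1 (adjusted p = 0.12), SKG replicate 2 (0.14), BALB replicate 1 (0.079) or BALB replicate 3 (0.062), and without BALB replicate 3 the log2 fold change was 0.35. Its second, dim probe set averaged 6.51 ± 0.39 in SKG and 6.28 ± 0.06 in BALB arrays (SD, n = 3 each), and its log2 fold change of 0.23 ± 0.22 did not pass when all probe sets were tested (adjusted p = 0.53). In bulk samples fewer cells that make a transcript and less transcript per cell cannot be told apart.

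Tnfsf8 and Tnfsf14 encode ligands of activated T cells. The first binds CD30, and the second binds HVEM and the lymphotoxin-β receptor. Tnfsf8 read 11.77, 11.77 and 11.75 in SKG arrays, against 11.35, 11.35 and 10.34 in BALB arrays. The SKG arrays were nearly equal, and BALB replicate 3 stood well below the other BALB arrays. The rise was 1.68-fold (limma adjusted p = 0.049), and the call was lost without SKG replicate 1 (0.12), 2 (0.12) or 3 (0.069). Without BALB replicate 3 the log2 fold change was 0.41, and the call held. Tnfsf14 read 10.81, 10.53 and 10.60 in SKG arrays, against 10.30, 10.12 and 9.61 in BALB arrays. The groups did not overlap, and BALB replicate 3 was again the lowest. The rise was 1.56-fold (limma adjusted p = 0.034), and the call was lost without SKG replicate 1 (0.13), SKG replicate 2 (0.067), BALB replicate 2 (0.062) or BALB replicate 3 (0.053). The second, dim probe set of Tnfsf14 was also higher on all SKG arrays than on all BALB arrays, by 0.27 ± 0.18 (adjusted p = 0.33).

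Fasl, which triggers death of Fas-bearing cells, read 10.30, 10.09 and 10.47 in SKG arrays, against 11.16, 10.85 and 11.06 in BALB arrays. All SKG arrays lay below all BALB arrays. Fasl in SKG was 0.60 times its BALB level (95% interval -1.06 to -0.40 on the log2 scale, limma adjusted p = 0.0064). The call held without each array in turn. The second probe set also had no overlap, with a log2 fold change of -0.61 ± 0.21, and did not pass when all probe sets were tested (adjusted p = 0.078). CD8 T cells and NK cells also make Fas ligand. The summed linear level of 2 CD8 markers was 29 to 125 in SKG arrays, against 236 to 252 in BALB arrays. Of these, Cd8b1 fell by 2.48 on the log2 scale (limma adjusted p = 0.0035) and Cd8a had a log2 fold change of 0.81 (adjusted p = 0.072). The part of CD8 cells in the Fasl result was not tested. The summed level of 3 NK markers was 16 to 35 in SKG arrays and 7 to 30 in BALB arrays, and none reached the floor for testing.

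The promoters of the 4 ligands called in SKG cells are shown with that of Ltb, which held the only NF-κB match among the ligands. Of the 10 ligands 8 matched RefSeq promoters of assembly GRCm38.p6. The window is the 250 bases before the gene's start, printed 5′ to 3′ along the gene, at chr14:78308044-78308293 (minus strand) for Tnfsf11, chr4:63861285-63861534 (minus strand) for Tnfsf8, chr17:57194182-57194431 (minus strand) for Tnfsf14, chr1:161788496-161788745 (minus strand) for Fasl and chr17:35194257-35194506 (plus strand) for Ltb. Capitals mark matches, on either strand, to the NFAT core GGAAA, to the AP-1 motif TGANTCA and to the NF-κB consensus, factors that PMA and ionomycin activate.
Tnfsf11: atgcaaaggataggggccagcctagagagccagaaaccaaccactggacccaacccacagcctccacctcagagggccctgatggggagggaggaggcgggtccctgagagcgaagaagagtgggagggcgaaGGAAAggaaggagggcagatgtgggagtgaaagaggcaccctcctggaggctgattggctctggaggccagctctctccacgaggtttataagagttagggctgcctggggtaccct
Tnfsf8: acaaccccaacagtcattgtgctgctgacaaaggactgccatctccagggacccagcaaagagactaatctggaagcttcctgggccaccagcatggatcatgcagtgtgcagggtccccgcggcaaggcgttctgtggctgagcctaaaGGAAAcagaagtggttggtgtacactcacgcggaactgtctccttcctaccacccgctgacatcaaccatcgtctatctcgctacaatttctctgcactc
Tnfsf14: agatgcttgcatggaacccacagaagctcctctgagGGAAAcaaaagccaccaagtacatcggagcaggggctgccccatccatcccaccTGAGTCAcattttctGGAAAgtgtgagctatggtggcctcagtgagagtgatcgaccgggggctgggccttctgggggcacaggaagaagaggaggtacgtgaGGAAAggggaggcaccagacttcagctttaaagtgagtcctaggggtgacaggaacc
Fasl: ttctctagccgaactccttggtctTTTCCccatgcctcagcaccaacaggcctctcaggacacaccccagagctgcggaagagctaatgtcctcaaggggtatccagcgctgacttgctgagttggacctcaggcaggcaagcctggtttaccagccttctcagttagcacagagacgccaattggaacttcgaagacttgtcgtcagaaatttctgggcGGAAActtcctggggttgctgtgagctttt
Ltb: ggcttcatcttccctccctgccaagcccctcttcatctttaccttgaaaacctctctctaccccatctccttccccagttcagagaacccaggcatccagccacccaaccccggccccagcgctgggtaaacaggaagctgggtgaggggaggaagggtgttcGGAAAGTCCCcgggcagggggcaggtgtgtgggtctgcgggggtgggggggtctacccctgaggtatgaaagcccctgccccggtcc
The NFAT core was in all 8 ligand promoters, and in 55.6% of 32851 mouse promoters over the same window. Tnfsf14 and Tnf held 3 matches to it, Fasl and Lta 2, and the other 4 held 1. AP-1 matched in 1 of the 8, Tnfsf14, and in 6.75% of all promoters. NF-κB matched in 1 of the 8, Ltb, and in 7.25% of all, and that match overlaps the NFAT core there. A match describes these letters and not a bound factor.

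Tnf, Lta and Ltb are neighbouring genes on chromosome 17, and their products form TNF, lymphotoxin-α and the membrane-bound lymphotoxin that signals for lymph node structure. None of these genes passed between SKG and BALB. Tnf read 12.18, 11.96 and 12.43 in SKG arrays, against 12.45, 12.34 and 12.67 in BALB arrays. The groups overlapped by the highest SKG and the lowest BALB array, and replicate 3 was highest in both. The log2 fold change was -0.30 ± 0.14, with a 95% interval of -0.61 to 0.014 (limma adjusted p = 0.14, blocked by replicate number 0.021). Without SKG replicate 3 Tnf passed (adjusted p = 0.028), and without SKG replicate 2 its log2 fold change was -0.18 (0.42). Lta read 9.67, 10.10 and 9.83 in SKG arrays, against 9.47, 9.37 and 9.67 in BALB arrays. All SKG arrays lay above all BALB arrays, though the lowest SKG and the highest BALB array nearly met, and the log2 fold change was 0.36 ± 0.16 (95% interval -0.0032 to 0.73, limma adjusted p = 0.13). Ltb read 11.17, 11.50 and 11.02 in SKG arrays, against 11.75, 11.69 and 11.21 in BALB arrays. Replicate 3 was lowest in both groups, which overlapped, and the log2 fold change was -0.32 ± 0.18 (95% interval -0.72 to 0.081, limma adjusted p = 0.22), and -0.48 without BALB replicate 3 (0.051). Macrophages and B cells also make TNF and lymphotoxins. The summed level of 7 macrophage markers was 138 to 199 in SKG arrays and 160 to 220 in BALB arrays, and 0 of the 6 tested passed by limma, while 1 was under an unadjusted p of 0.05 and 1, Cd68, was lower in SKG once blocked by replicate number (adjusted p = 0.025). That of 7 B cell markers was 2865 to 6707 in SKG arrays, against 691 to 2429 in BALB arrays, and 1 of the 5 tested, Ighm, rose by 1.93 (limma adjusted p = 0.012). Most of that sum was Ighm, which averaged 12.11 in SKG and 10.19 in BALB arrays with the 12 arrays normalized together. The next highest marker, Ms4a1, averaged 6.35 in SKG and 6.04 in BALB arrays. All 5 tested B cell markers had a higher mean in SKG. At an unadjusted p under 0.05 there were 2, Ighm and Blk, where 38.9% of all genes tested reached it. Blk had a log2 fold change of 0.96 ± 0.32 (limma adjusted p = 0.052). The summed level of 5 dendritic cell markers was 64 to 113 in SKG arrays and 56 to 95 in BALB arrays. Of the 4 tested 1, Zbtb46, was higher in SKG by 0.75 (limma adjusted p = 0.047, blocked by replicate number 0.055). The part of B cells or dendritic cells in these results was not tested.

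Tnfsf4 (OX40 ligand), Tnfsf10 (TRAIL, a death ligand) and Cd40lg, the helper signal for B cells, did not pass either. Tnfsf4 read 8.48, 8.85 and 7.18 in SKG arrays, against 7.31, 7.32 and 7.50 in BALB arrays. SKG replicates 1 and 2 stood above every BALB array and SKG replicate 3 below all of them. The log2 fold change was 0.79 ± 0.37 (95% interval -0.043 to 1.63, limma adjusted p = 0.15). It was 1.29 without SKG replicate 3 (adjusted p = 0.0011) and 0.46 without SKG replicate 2 (0.42). Tnfsf10 read 7.59, 7.43 and 6.32 in SKG arrays, against 6.62, 7.03 and 5.93 in BALB arrays. Replicate 3 was lowest in both groups, and the log2 fold change was 0.59 ± 0.38 (95% interval -0.26 to 1.44, limma adjusted p = 0.29, blocked by replicate number 0.038). It was 0.98 without SKG replicate 3 (adjusted p = 0.036), 0.35 without SKG replicate 1 (0.62) and 0.29 without BALB replicate 3 (0.61). Its other probe sets gave 0.25 ± 0.30 and 0.65 ± 0.30. Cd40lg read 6.98, 6.71 and 7.48 in SKG arrays, against 7.45, 7.56 and 7.83 in BALB arrays. Only SKG replicate 3 reached the BALB range, and the log2 fold change was -0.55 ± 0.22 (95% interval -1.06 to -0.045, limma adjusted p = 0.10, blocked by replicate number 0.033). Without SKG replicate 3 it was -0.76 (adjusted p = 0.016). Between SKG and BALB 4 ligands (Tnfsf8, Tnfsf11, Tnfsf14 and Lta) had all SKG arrays above and 1 (Fasl) had them below, where 24.9% of all genes tested lay above and 18.4% below, 43.3% in either direction. At an unadjusted p under 0.05 there were 5 ligands, Tnfsf8, Tnfsf11, Tnfsf14, Cd40lg and Fasl, against 38.9% of genes.

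**Figure D2:**
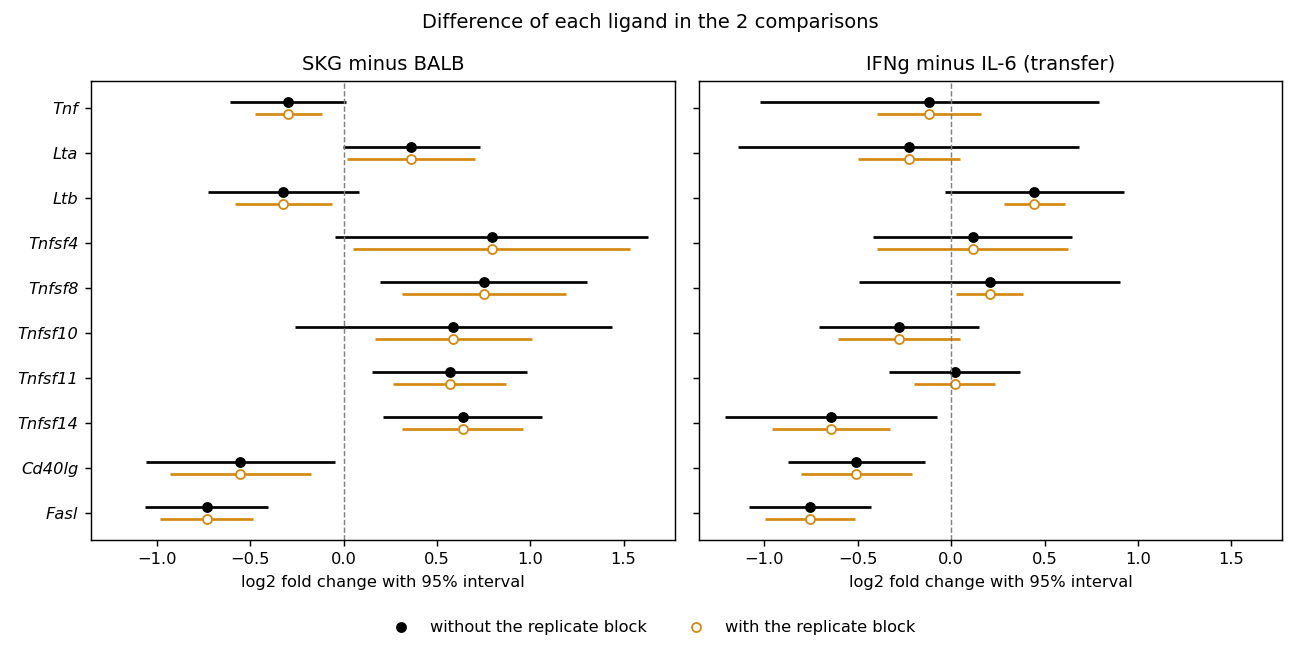
Log2 fold change of each ligand with its 95% limma interval, SKG minus BALB on the left and IFNg minus IL-6 transfer on the right, without (filled) and with (open) the replicate number as a block. In SKG minus BALB the intervals without the block lie above 0 for Tnfsf8, Tnfsf11 and Tnfsf14, and below 0 for Fasl and Cd40lg.

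In the transfer comparison none of the 10 ligands passed between the arrays labelled IFNg and IL-6 by limma, where 14 of 12262 genes tested did (0.114%). At an unadjusted p under 0.05 there were 3 ligands, Fasl, Cd40lg and Tnfsf14, where 4.35% of all genes reached it. The same 3 had all IFNg arrays below all IL-6 arrays, as 4.53% of genes tested did, and no ligand had them above, as 5.41% did, for 9.93% in either direction. The median log2 fold change was -0.17 over the 10 ligands and 0.0038 over all genes tested. With the replicate block 2 ligands passed, Ltb higher and Fasl lower, against a background of 1.79%.

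Fasl read 9.76, 9.65 and 9.88 in IFNg arrays, against 10.57, 10.61 and 10.38 in IL-6 arrays. Every IFNg array lay below every IL-6 array, with a gap wider than the spread within either group. The log2 fold change was -0.76 ± 0.14 (95% interval -1.08 to -0.43, limma adjusted p = 0.29, blocked by replicate number 0.012). The second probe set gave -0.14 ± 0.21, with overlapping groups. The summed level of the CD8 markers was 55 to 60 in IFNg arrays and 41 to 55 in IL-6 arrays, and that of the NK markers was 13 to 20 in IFNg and 2 to 29 in IL-6 arrays. Cd40lg read 6.93, 6.89 and 6.85 in IFNg arrays, against 7.36, 7.38 and 7.46 in IL-6 arrays. Both groups were tight and apart, with a log2 fold change of -0.51 ± 0.16 (limma adjusted p = 0.84, blocked by replicate number 0.11). Tnfsf14 read 9.43, 9.14 and 10.06 in IFNg arrays, against 10.08, 10.17 and 10.31 in IL-6 arrays. IFNg replicate 3 came close to the lowest IL-6 array, and the log2 fold change was -0.64 ± 0.24 (limma adjusted p = 1.0).

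Tnfsf11 hardly differed in mean between the transfer groups. It read 11.30, 11.21 and 11.72 in IFNg arrays, against 11.42, 11.34 and 11.42 in IL-6 arrays. The groups overlapped, with IFNg replicate 3 the highest. The log2 fold change was 0.020 ± 0.15, and its 95% interval of -0.33 to 0.37 leaves room for a change of either sign (limma adjusted p = 1.0). Tnfsf8 read 11.90, 11.94 and 11.02 in IFNg arrays, against 11.53, 11.75 and 10.95 in IL-6 arrays, with replicate 3 lowest in both, and its log2 fold change was 0.21 ± 0.30. Ltb read 11.44, 11.44 and 10.89 in IFNg arrays, against 10.98, 10.96 and 10.49 in IL-6 arrays. Each IFNg array was above the IL-6 array of its number, and the log2 fold change was 0.45 ± 0.20 (limma adjusted p = 1.0, blocked by replicate number 0.022), and 0.28 without IL-6 replicate 3.

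The transfer arrays of replicate 3, which had the high actin ratios, stood apart from replicates 1 and 2 for several ligands in both groups. Tnf was 11.15 in IFNg replicate 3, against 9.81 and 9.88 in the other IFNg arrays, and it was 10.89 in IL-6 replicate 3, against 10.18 and 10.13. Lta was 7.66 in replicate 3 of both groups, against 8.51 and 8.51 in the other IFNg arrays and 8.89 and 8.80 in the other IL-6 arrays. Tnf was thus highest and Lta lowest on the same arrays within each group. The summed level of 7 macrophage markers was 220 to 267 in IFNg and 170 to 232 in IL-6 arrays, and that of 4 neutrophil markers was 65 to 330 in IFNg and 49 to 1489 in IL-6 arrays. Their part in these values was not tested. The log2 fold changes of IFNg over IL-6 were -0.12 ± 0.39 for Tnf, -0.23 ± 0.39 for Lta, 0.11 ± 0.23 for Tnfsf4 and -0.28 ± 0.18 for Tnfsf10, all at a limma adjusted p of 1.0.

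**Figure D3:**
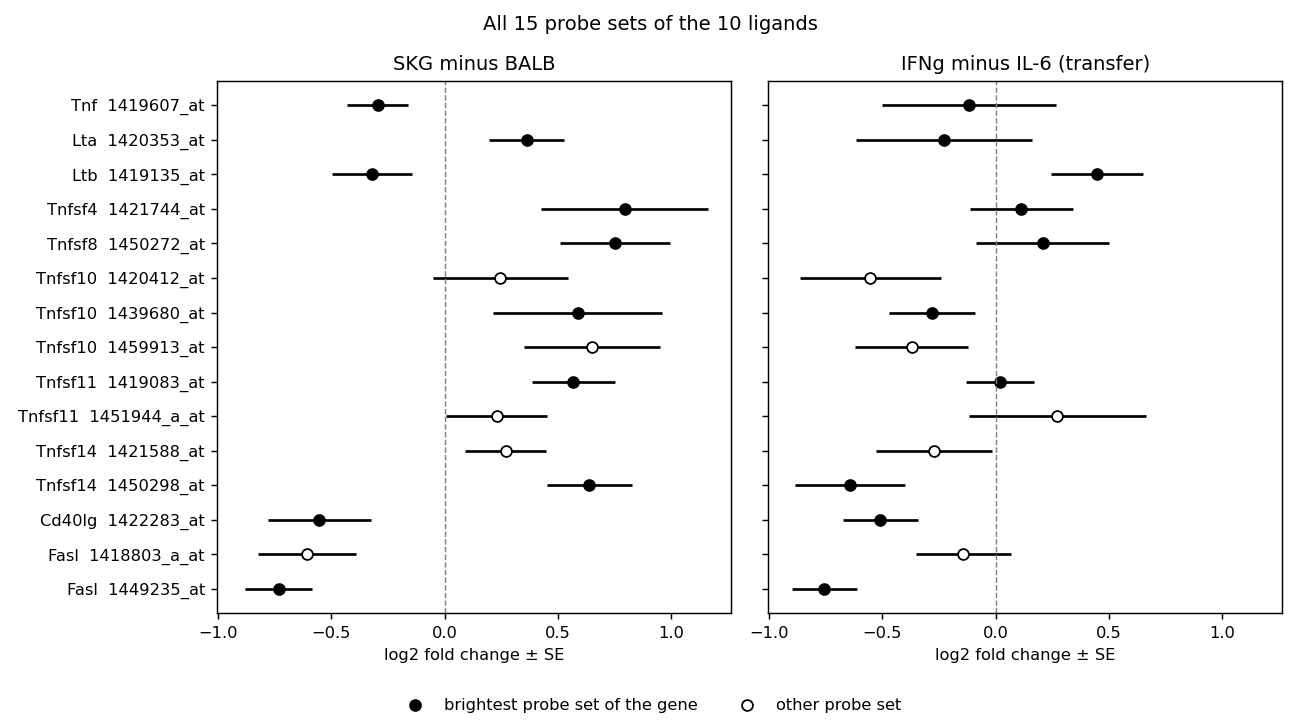
Log2 fold change ± SE of all 15 probe sets of the 10 ligands, fitted with all probe sets on the array, SKG minus BALB on the left and IFNg minus IL-6 transfer on the right. Filled points are the brightest probe set of a gene. All probe sets of Fasl, Tnfsf10, Tnfsf11 and Tnfsf14 share 1 sign within each comparison, and the dimmer ones of Tnfsf11 and Tnfsf14 lie nearer 0 in SKG minus BALB. In the transfer panel the shared sign says little for Tnfsf11, at 0.020 ± 0.15 and 0.27 ± 0.39. The dimmer Fasl probe set gave -0.14 ± 0.21 there, against -0.76 ± 0.14 for the brightest.

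Whether a ligand's difference itself differed between the comparisons was tested over all 12 arrays, as (SKG minus BALB) minus (IFNg minus IL-6). The order of the groups was a choice. With 1 comparison reversed, the same differences would give other interactions, which were not tested. Tnfsf14 did, with 0.64 between SKG and BALB and -0.64 between IFNg and IL-6, an interaction of 1.29 ± 0.33 (95% interval 0.58 to 1.99, limma adjusted p = 0.031). It was the only 1 of the 10 ligands, where 8.2% of 12176 genes tested passed. The call was lost without SKG replicate 1 (adjusted p = 0.086) or 2 (0.060), BALB replicate 2 (0.051) or 3 (0.070), IFNg replicate 1 (0.073) or 2 (0.069), or IL-6 replicate 1 (0.056) or 2 (0.067), and the interaction ran from 1.08 to 1.55 over the 12 arrays left out. Without SKG replicate 3 Tnfsf4 passed too, with an interaction of 1.18 (adjusted p = 0.031). With the replicate block 5 ligands passed, against 25.6% of genes, with adjusted p of 0.0016 for Tnfsf14, 0.0019 for Ltb, 0.021 for Tnfsf10, 0.040 for Tnfsf11 and 0.049 for Lta. Fasl had log2 fold changes of -0.73 between SKG and BALB and -0.76 between IFNg and IL-6, and its interaction was 0.021 ± 0.20 (95% interval -0.42 to 0.46).

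Across all 4 groups the ligands fell into 3 patterns, given as a description since age, stimulation, host and tissue differ together between the SKG and BALB arrays and the transfer arrays. With the 12 arrays normalized together, Tnf averaged 12.17 ± 0.24 in SKG, 12.47 ± 0.16 in BALB, 10.30 ± 0.75 in IFNg and 10.41 ± 0.43 in IL-6 arrays (SD, n = 3 each). Lta averaged 9.85 ± 0.22 in SKG, 9.49 ± 0.15 in BALB, 8.22 ± 0.49 in IFNg and 8.44 ± 0.69 in IL-6 arrays. Tnfsf4 averaged 8.18 ± 0.88 in SKG, 7.38 ± 0.11 in BALB, 5.78 ± 0.33 in IFNg and 5.67 ± 0.18 in IL-6 arrays. All SKG and BALB arrays were above all transfer arrays for these 3 ligands, by 1.96 for Tnf, 1.34 for Lta and 2.06 for Tnfsf4 in mean. Tnfsf11 ran the other way, at 11.05 ± 0.08 in SKG, 10.48 ± 0.38 in BALB, 11.43 ± 0.27 in IFNg and 11.41 ± 0.04 in IL-6 arrays. SKG and the transfer groups were apart, as were SKG and BALB, while IFNg and IL-6 overlapped. These patterns are of the brightest probe set of each gene. The dim second probe set of Tnfsf11 averaged 6.51 in SKG, 6.27 in BALB, 6.44 in IFNg and 6.17 in IL-6 arrays. Its groups overlapped and did not show that order. Tnfsf10 averaged 7.12 ± 0.70 in SKG, 6.52 ± 0.56 in BALB, 8.01 ± 0.22 in IFNg and 8.30 ± 0.13 in IL-6 arrays, and every SKG and BALB array was below every transfer array. Of its other probe sets, the dimmest kept that separation. The remaining one overlapped, reaching 7.06 in SKG arrays against a lowest value of 6.95 in IFNg arrays. The other 5 ligands overlapped between them. For Fasl the order was BALB, IL-6, SKG and IFNg, where IL-6 and SKG overlapped and the other neighbours did not.

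Over the 12 arrays, the genes whose level followed that of Tnfsf11 most closely were A430005L14Rik, Dennd1b, Ddx59, Cntd1 and Slc38a9, with Pearson r of 0.95 to 0.97 among 11433 genes. For Tnf they were Zfp81, Dnajb9, Zzz3, Ppp2r1b and Gimap6, with r of 0.976 to 0.982. These values describe arrays that share the differences between the 4 groups, and they are given without a p.

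The receptors and the signalling genes behind these ligands were counted from lists drawn up by role. Of 10 tested receptors of the ligands 1 rose and 2 fell in SKG by limma, where 15.7% of all genes tested rose and 11.8% fell. That is close to the background of 27.5% in either direction and is no result about the receptors. In the transfer comparison 0 receptors were called by limma and 0 were at an unadjusted p under 0.05. Tnfrsf4 (OX40, the receptor of Tnfsf4) rose by 1.14 ± 0.11 (limma adjusted p = 0.00026). The TNF receptors Tnfrsf1a and Tnfrsf1b fell by 1.02 and fell by 0.94 (limma adjusted p = 0.013 and 0.0066), and Fas had -1.50 ± 0.53 (adjusted p = 0.065, and 0.0037 with the replicate block). Of 17 tested adaptors, signalling and shedding genes 7 were at an unadjusted p under 0.05 in SKG, against 38.9% of all genes tested. By limma, where 15.7% of all genes tested rose and 11.8% fell, 0 of these 17 rose and 6 fell. They included the NF-κB feedback inhibitor Tnfaip3, with -0.65 ± 0.099, the adaptor Traf6, with -0.86 ± 0.16, and the NF-κB subunits Nfkb2, with -0.69 ± 0.13, and Relb, with -0.56 ± 0.15 (limma adjusted p from 0.0020 to 0.020). With the replicate block 1 of the 17 rose and 6 fell, where 34.6% of all genes tested passed in either direction. The 1 that rose was Tradd, an adaptor of TNF receptor 1 (0.50 ± 0.25 without the block, adjusted p = 0.17, blocked 0.026). In the transfer comparison 0 of these 17 passed by limma (0 did at an unadjusted p under 0.05) and 2 did with the replicate block, Birc3 higher (adjusted p = 0.036) and Traf5 lower (0.023). The other TNF superfamily ligands tested were Tnfsf9, Tnfsf13b and Cd70, and 0 of these 3 passed by limma in either comparison, with 1, Tnfsf9, at an unadjusted p under 0.05 in SKG and 0 in the transfer. Tnfsf9 (4-1BB ligand) had 0.55 ± 0.21 in SKG (adjusted p = 0.087, blocked by replicate number 0.027), and Cd70 had -1.42 ± 0.78 in the IFNg transfer (adjusted p = 1.0). Of 8 early activation genes 2 rose and 2 fell in SKG, where 15.7% of all genes tested rose and 11.8% fell. These counts rest on 8 genes and were not tested against that background of 27.5%. The genes called were Egr1 at 0.88 ± 0.13, Il2ra at 0.99 ± 0.17, Nr4a1 at -1.17 ± 0.091 and Myc at -0.55 ± 0.12 (limma adjusted p from 0.00012 to 0.010). In the transfer comparison none of the 8 was called, and none had an unadjusted limma p below 0.05. Blocked by replicate number, Cd69 was also lower in SKG (adjusted p = 0.027), and Nr4a1 was lower in the IFNg transfer (0.023).

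**Figure D4:**
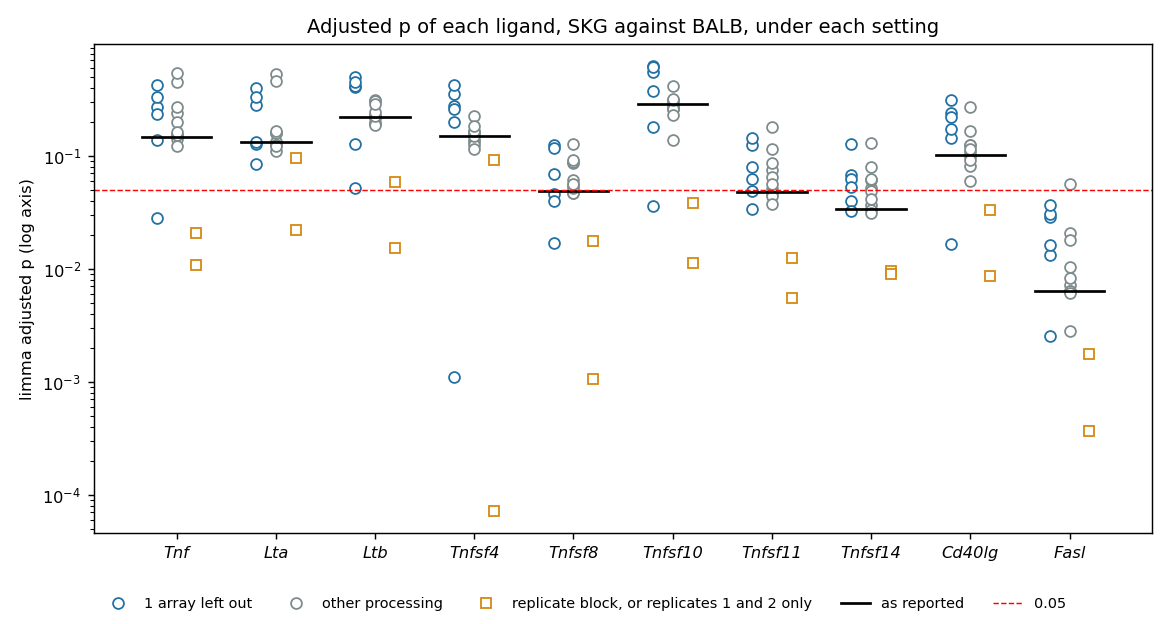
Limma adjusted p on a log axis for each ligand, SKG against BALB, as reported (black line), with 1 array left out (blue), with other processing (grey) and with the replicate block or replicates 1 and 2 only (orange squares). Fasl lies below 0.05 in 17 of its 18 alternatives, Tnfsf14 in 9, and Tnfsf8 and Tnfsf11 in 7 each.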

How the data were processed

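Per the labels' protocols, RNA came from QIAGEN RNeasy and was labelled by in vitro transcription. The deposited values are linear intensities for 45101 probe sets, and the sources used here do not give the authors' software or normalization. The arrays of each comparison, without 64 control probe sets, were quantile normalized as log2(intensity + 16). The annotation gave 1 gene to 34958 probe sets, several to 932 and left 9211 unnamed, and 34754 symbols were updated by gene ID to GRCm38.p6. A gene was read from its brightest probe set (mean of 12 arrays) and tested where its mean over the arrays fitted was at or above a floor, the 40th percentile of probe-set means there. The 6 arrays of a comparison made up 1 fit (limma 3.58.1 in R 4.3.3, lmFit and trended eBayes). Tests were two-sided, and a call needed a Benjamini-Hochberg adjusted p under 0.05 over all genes tested. The difference between comparisons was a contrast over 12 arrays, (SKG minus BALB) minus (IFNg minus IL-6), in a chosen order of groups. Precision is limited by 3 arrays a group, and p-values measure the spread between arrays that may be technical, since no label says that replicates were separate animals.

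The members and lists were chosen with earlier results of these data known. All 10 ligands are named, with up to 4 genes of each list by smallest p, genes that check the labels, and the 5 genes nearest in pattern to Tnfsf11 and Tnf. Members without a probe set of their own are not analysed here, among them Tnfsf12, Tnfsf13, Tnfsf15, Tnfsf18, Traf3 and Ripk1.

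The labels number replicates 1 to 3 in every group. Deviations from group means of same-numbered arrays correlated at 0.13, 0.20 and 0.33 in the SKG comparison. In the transfer comparison the same correlations were 0.46, 0.45 and 0.70. Each exceeded 0.1, so a blocked value stands beside a result whose call it changes. Replicates 1 and 2 also correlated across numbers, at 0.17 and 0.17, and at 0.44 and 0.41, so the block acts mainly on replicate 3. On simulated arrays the fit recovered 48% of 100 genes changed by 1 and 78% of 100 changed by 2 on the log2 scale for SKG against BALB (12059 genes tested, 8 unchanged genes called). In the transfer comparison it recovered 30% and 81% (12251 genes, 5 unchanged called). The simulated noise was normal and independent between arrays, without the pattern of replicate 3. The changed genes were few and came from probe sets at or above the median intensity, while 27.5% of genes were called between SKG and BALB. The shares recovered are thus not the power of the real tests. The alternatives were added constants of 1 and 64, no filter or a 60th percentile filter, no normalization, trimmed mean scaling, the median of probe sets, all probe sets, no trend, all 12 arrays in one fit, the block, and leaving out each array. Replicates 1 and 2 only was added after seeing the data.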

Additional observations from a re-analysis of the deposited data

Results flagged for a closer look

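Tnfsf14 differed between the comparisons when these were taken as SKG minus BALB and IFNg minus IL-6, an order that was chosen. Its log2 fold change was 0.64 between SKG and BALB and -0.64 between the IFNg and IL-6 transfers. The transfer difference alone did not pass by limma. The interaction over the 12 arrays was 1.29 (limma adjusted p = 0.031), where 8.2% of 12176 genes tested passed. The call was lost in 8 of the 12 fits that left out a single array. All SKG arrays lay above all BALB arrays and all IFNg arrays below all IL-6 arrays. Groups of 3 arrays are too small for a test of single arrays that stand apart.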

How the results depend on the processing

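The 4 ligands called between SKG and BALB kept their direction under all 18 alternatives. Their count was 2 with log2(intensity + 1), 1 with no filter, 0 without normalization, 2 with trimmed mean scaling, 1 with the median of probe sets, 2 with all probe sets separately, 1 without the trend, 2 with all 12 arrays in one fit, 7 with the replicate block and 10 with replicates 1 and 2 only, and it ran from 1 to 7 with 1 array left out. The 1 ligand that remained in each setting with a count of 1 was Fasl, which lost its call without normalization (adjusted p = 0.057). All genes called numbered 1960 without normalization, 5071 with replicates 1 and 2 only, and 1999 to 3907 with 1 array left out, against 3324. Replicates 1 and 2 were the closest pair in every group, so a fit on them alone takes a smaller spread than 3 replicates have. Its counts are not evidence of firmer calls. In the transfer comparison 2 ligands passed with the replicate block and 3 with replicates 1 and 2 only (Ltb, Tnfsf14 and Fasl), and 0 with any 1 array left out. All genes called there numbered 9 with the median of probe sets, 31 with all 12 arrays in one fit, 219 with the replicate block, 501 with replicates 1 and 2 only, and 2 to 26 with 1 array left out, against 14. Ligands that differed between the comparisons numbered 5 with the replicate block and 6 with replicates 1 and 2 only, and 0 to 2 with 1 array left out, against 1. Of all genes tested, 25.6% passed with the block and 8.2% without it. No such share is given for the other settings, so their counts cannot be set against a background.

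Signs turned only for values that passed no test. Without normalization Tnfsf11 was -0.11 between the transfers, and with replicates 1 and 2 only it was -0.12 and Tnfsf4 -0.16. Fasl had an interaction of -0.23 with the median of probe sets. With 1 array left out the transfer values ran from -0.55 to 0.13 for Tnf, -0.62 to 0.059 for Lta, -0.064 to 0.26 for Tnfsf4, -0.14 to 0.12 for Tnfsf11 and -0.023 to 0.51 for Tnfsf8, and the interactions from -0.28 to 0.11 for Cd40lg, -0.072 to 0.12 for Fasl and -0.43 to 0.25 for Tnf. The causes were not tested. The dim probe sets of Tnfsf11 and Tnfsf14 limit what a second reading can show.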
